A study of Drosophila melanogaster with 13 samples.

Results

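The genes described here make and load pteridines, the red pigments of the fly eye. A probe set (the short probes that are read as 1 measure of a transcript) was taken when the platform annotation named se, pr, Pu, cl, ry, mal or bw as its gene. This gave 8 probe sets of 7 genes, out of 18769 probe sets tested and 11982 genes named: 1 for each gene except bw, which had 2. Heads of adult flies were profiled on Affymetrix expression arrays, 3 arrays in each of 4 groups, and the replicates are biological per the labels. All flies carried yw and the balancer chromosome CyO, and were kept at 25 °C and 70% humidity. The control was yw; +/CyO. The egg mutant was yw; egg235/CyO, so it carried the mutation on 1 chromosome copy, over the balancer. The Su(var)3-9 mutant was yw; +/CyO; Su(var)3-906, written with no second allele, so that the number of mutant copies was not stated. The double mutant, yw; egg235/CyO; Su(var)3-906, carried both. Both genes encode histone H3 lysine 9 methyltransferases, and the groups ask how mutations in them, alone and together, change transcripts.

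Pteridine synthesis starts from GTP. Pu encodes GTP cyclohydrolase I, which makes dihydroneopterin triphosphate, and pr encodes 6-pyruvoyl-tetrahydropterin synthase, which makes the next intermediate. From there a branch leads to the red drosopterins, through the glutathione transferase encoded by se and the thioredoxin-like protein encoded by cl, and another leads to tetrahydrobiopterin, a cofactor of amine and nitric oxide synthesis. ry encodes xanthine dehydrogenase, which also converts pterins, and mal encodes the sulfurase that completes its molybdenum cofactor. bw encodes a subunit of the ABC transporter that carries pteridine precursors into pigment granules together with the product of white. In fly notation yw stands for mutations in yellow and white, and CyO balancers commonly carry mutant alleles of pr and cn. The labels do not list the balancer's alleles, and all 4 groups shared yw and CyO. white itself had 0 probe sets with its name alone and was not measured. The sequences of the genes and probes were not used here.

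The libraries did not differ in genotype alone. Other tissues stood apart between the groups: the level of 20 measured testis genes, as the median log2 signal per array, was 8.78 to 9.46 on the control arrays, 6.52 to 6.63 in egg mutants, 4.43 to 4.998 in Su(var)3-9 mutants and 4.87 to 5.59 in double mutants. That of 20 gut genes was 10.72 to 11.21, 7.54 to 8.24, 5.01 to 7.27 and 5.36 to 6.70 in the same order. The head's own markers were present in every group, with 13 photoreceptor genes at 11.84 to 12.10 in controls, 12.69 to 12.82 in egg mutants, 12.25 to 12.43 in Su(var)3-9 mutants and 12.34 to 12.51 in double mutants. The pigment cell gene Pdh, a retinol dehydrogenase, was at 13.40 to 13.70 in controls and at 13.72 to 13.97 in the mutants. In such samples a different number of pigment cells and a different amount of RNA per cell cannot be told apart. egg and Su(var)3-9 had 0 probe sets named for them alone, so the mutated genes gave no check of the labels. A gene was called changed at a Benjamini-Hochberg adjusted p under 0.05 over all 18769 probe sets in limma, two-sided. All levels and changes below are log2 values, given as a change ± its standard error, and levels of different probe sets are not comparable.

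Pu, the enzyme of the entry step on chromosome arm 2R, rose in every mutant. Its levels in replicates 1 to 3 were 11.81, 11.93 and 11.92 in controls and 12.08, 12.35 and 12.19 in egg mutants. They were 12.79, 12.62 and 12.79 in Su(var)3-9 mutants and 12.57, 12.69 and 12.78 in double mutants. The control was the lowest group and the egg mutant the next, with no overlap between them or with the other groups, while the arrays of the Su(var)3-9 and double mutants overlapped. The change from the control was 0.32 ± 0.09 in egg mutants (adjusted p = 0.00994), 0.85 ± 0.09 in Su(var)3-9 mutants (adjusted p = 5.57e-06) and 0.79 ± 0.09 in double mutants (adjusted p = 1.02e-05). The call in egg mutants missed the threshold without egg replicate 2 (change 0.24, adjusted p = 0.0508), and also when arrays were centred on their brighter probe sets or scaled by cyclic loess (changes 0.20 and 0.17). The double and Su(var)3-9 mutants differed by -0.05, with a 95% interval of -0.25 to 0.14.

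pr, the second enzyme of the pathway, on arm 2L, rose in both groups with the Su(var)3-9 mutation. Its levels were 10.26, 10.24 and 10.42 in controls, 10.41, 10.49 and 10.52 in egg mutants, 11.23, 11.45 and 11.16 in Su(var)3-9 mutants and 10.95, 10.999 and 11.0002 in double mutants. The control and the egg mutant overlapped, and every array with the Su(var)3-9 mutation lay above both. The change from the control was 0.97 ± 0.09 in Su(var)3-9 mutants (1.96-fold, adjusted p = 9.91e-07), 0.68 ± 0.09 in double mutants (1.60-fold, adjusted p = 2.5e-05) and 0.17 ± 0.09 in egg mutants (adjusted p = 0.124). The double mutant lay below the Su(var)3-9 mutant on all arrays, but this difference of -0.29 ± 0.09 did not pass (adjusted p = 0.0769). The probe set of pr is of the type that can match several transcripts, and a mutant pr transcript from the balancer would count in it.

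se, the glutathione transferase of the drosopterin branch, on arm 3L, had the highest rise of the 7 genes in Su(var)3-9 mutants. Its levels were 10.88, 11.22 and 10.89 in controls and 11.10, 11.33 and 11.22 in egg mutants. The Su(var)3-9 mutant had 12.35, 12.39 and 12.34 and the double mutant 11.87, 11.98 and 11.86. Control and egg mutant overlapped, the double mutant lay above both, and the Su(var)3-9 mutant lay above all other arrays. The change from the control was 1.36 ± 0.10 in Su(var)3-9 mutants, a 2.57-fold rise (adjusted p = 1.5e-07) that exceeded the change of 99.1% of probe sets. It was 0.90 ± 0.10 in double mutants (1.87-fold, adjusted p = 6.53e-06) and 0.22 ± 0.10 in egg mutants (adjusted p = 0.0848). The double mutant was lower than the Su(var)3-9 mutant, with a difference of -0.46 ± 0.10 (adjusted p = 0.0162). This call held in 8 of 12 fits that each left out 1 array, with a highest adjusted p of 0.0633.

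cl, the other protein of the drosopterin branch, on arm 2L, did not share this pattern. It was at 10.47, 10.39 and 10.38 in controls, 10.25, 10.28 and 10.28 in egg mutants, 10.08, 10.34 and 10.13 in Su(var)3-9 mutants and 10.29, 10.47 and 10.40 in double mutants. All arrays lay within a narrow band, with those of both single mutants below the control's. cl fell by 0.23 ± 0.08 in Su(var)3-9 mutants (adjusted p = 0.0272). The call was lost without control replicate 1, Su(var)3-9 replicate 1 or Su(var)3-9 replicate 3 (highest adjusted p = 0.107), and the change was 0.14 when each array was centred on its median. In the egg and double mutants its changes of -0.14 and -0.02 did not pass (adjusted p = 0.176 and 0.807).

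ry, the xanthine dehydrogenase gene on arm 3R, rose in double mutants. Its levels were 7.83, 7.98 and 7.57 in controls, 7.50, 7.62 and 7.50 in egg mutants, 8.04, 8.04 and 7.95 in Su(var)3-9 mutants and 8.08, 8.34 and 8.21 in double mutants. The egg mutant held the lowest arrays, overlapping the control at its lowest array, and the double mutant the highest. The change from the control was 0.42 ± 0.10 in double mutants (adjusted p = 0.0043), with -0.25 ± 0.10 in egg mutants (adjusted p = 0.0612) and 0.22 ± 0.10 in Su(var)3-9 mutants (adjusted p = 0.0796). The difference of the egg from the Su(var)3-9 mutant was -0.47 ± 0.10 (adjusted p = 0.00487), and the double mutant was above the egg mutant by 0.67 ± 0.10, or 1.59-fold (adjusted p = 0.000963).

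mal, whose product activates xanthine dehydrogenase, on the X chromosome, passed the test in none of the 7 contrasts as deposited. Its arrays read 6.69, 6.82 and 6.61 in controls, 6.86, 6.75 and 6.73 in egg mutants, 6.83, 6.38 and 6.61 in Su(var)3-9 mutants and 6.74, 6.75 and 6.73 in double mutants. All groups overlapped. The 95% intervals of its changes from the control were -0.15 to 0.30 in egg mutants, -0.32 to 0.13 in Su(var)3-9 mutants and -0.19 to 0.26 in double mutants.

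**Figure D1:**
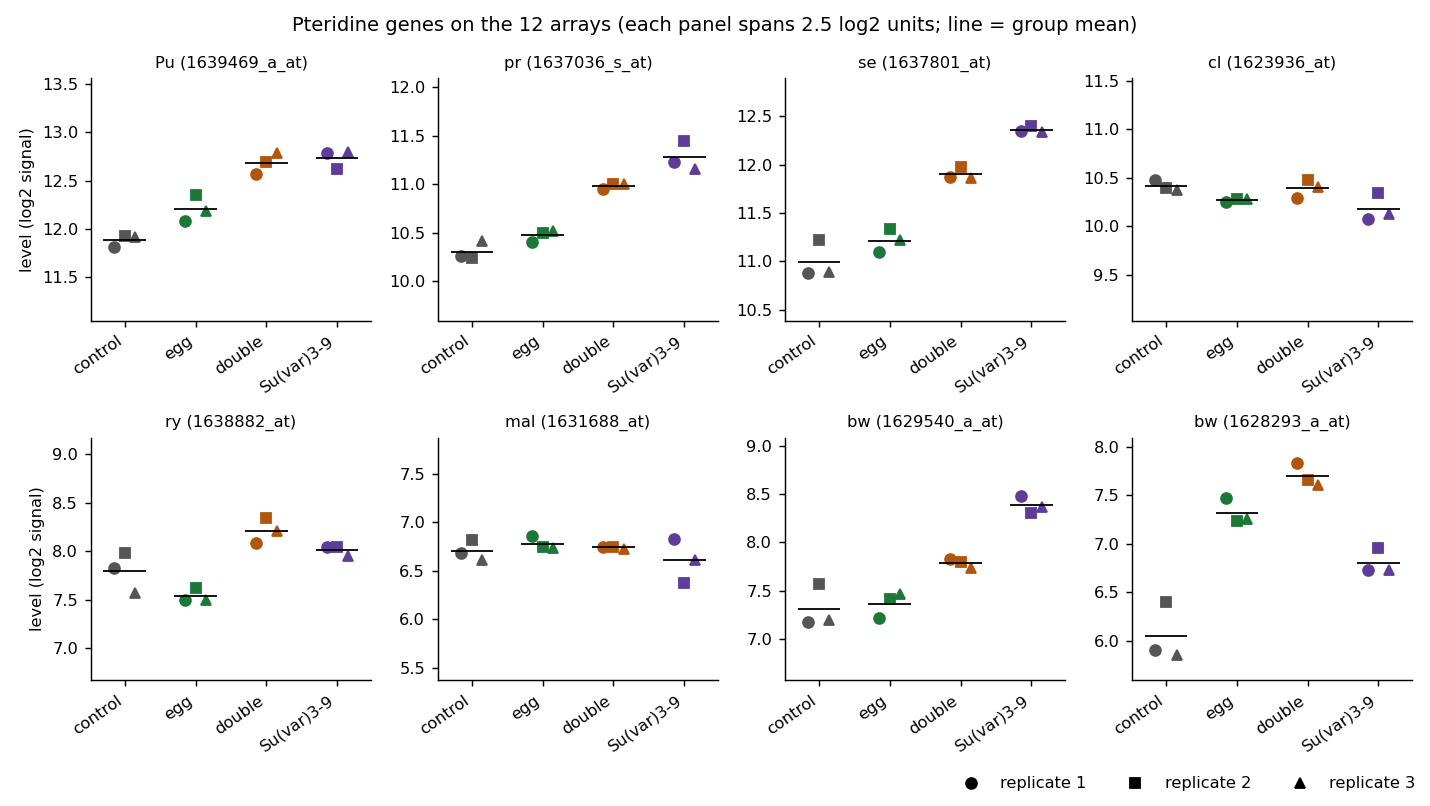
Log2 signal of each probe set (vertical axis, a span of 2.5 log2 units in every panel) on the 12 arrays by group, with replicates 1 to 3 as circle, square and triangle and the group mean as a line. Pu, pr and se stand higher in the double and Su(var)3-9 mutants than in controls and the egg mutant, mal stays between 6.38 and 6.86, and the 2 bw probe sets order the groups differently.

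bw, the transporter gene on arm 2R, gave different answers in its 2 probe sets, so that its change in egg mutants depended on the probe set. Over the control only the dimmer probe set rose there as deposited. Against Su(var)3-9 mutants the dimmer was higher and the brighter lower. The brighter one, 1629540_a_at, which stands for bw in the counts, read 7.18, 7.57 and 7.20 in controls, 7.22, 7.41 and 7.47 in egg mutants, 8.48, 8.30 and 8.37 in Su(var)3-9 mutants and 7.83, 7.80 and 7.74 in double mutants. It had the pattern of se: control and egg mutant overlapped, the double mutant was above them and the Su(var)3-9 mutant highest. Its change from the control was 1.07 ± 0.11 in Su(var)3-9 mutants (2.10-fold, adjusted p = 3.26e-06), 0.47 ± 0.11 in double mutants (adjusted p = 0.00231) and 0.05 ± 0.11 in egg mutants (adjusted p = 0.739). The double mutant was lower than the Su(var)3-9 mutant, with a difference of -0.59 ± 0.11 (adjusted p = 0.00557).

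The other bw probe set, 1628293_a_at, read 5.91, 6.40 and 5.85 in controls, 7.47, 7.23 and 7.25 in egg mutants, 6.73, 6.95 and 6.73 in Su(var)3-9 mutants and 7.83, 7.66 and 7.61 in double mutants. No groups overlapped, and the groups with the egg mutation held the highest arrays. The change from the control was 1.27 ± 0.14 in egg mutants (2.41-fold, adjusted p = 6.81e-06), above that of 99.2% of probe sets. It was 0.75 ± 0.14 in Su(var)3-9 mutants (adjusted p = 0.000454) and 1.65 ± 0.14 in double mutants (3.14-fold, adjusted p = 5.67e-07). Against Su(var)3-9 mutants it was higher by 0.51 ± 0.14 in egg mutants (adjusted p = 0.0143) and by 0.90 ± 0.14 in double mutants (adjusted p = 0.00167), where the first probe set was lower in both. The call of egg against Su(var)3-9 mutants was lost without egg replicate 1 (0.44, adjusted p = 0.0605) and under median centring (0.37, adjusted p = 0.0518). It was also lost with the other-tissue covariate used further on (0.86, adjusted p = 0.0641). Egg replicate 1 stood apart in its 13 measured ovary genes, with a median of 6.93 against 4.41 and 4.84 in replicates 2 and 3. The part of this was not tested. Against the control the rise in egg mutants passed in 12 of 12 fits that left out 1 array. With the covariate that rise was 0.66 and did not pass (adjusted p = 0.379).

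The difference between these probe sets within an array, 1628293_a_at minus 1629540_a_at, separated the arrays by the egg mutation. It was -1.27, -1.17 and -1.35 in controls and -1.75, -1.35 and -1.64 in Su(var)3-9 mutants. It was 0.24, -0.18 and -0.21 in egg mutants and 0.01, -0.14 and -0.13 in double mutants. The egg mutation moved it by 1.22 without and 1.49 with the Su(var)3-9 mutation, a mean of 1.35 (two-sided exact permutation test within each Su(var)3-9 state, 400 regroupings, p = 0.005, the smallest they can give). The Su(var)3-9 mutation moved it by a mean of -0.18 (exact permutation p = 0.14). These 2 tests were added after the values were seen. bw and egg lie on the same arm with 246 protein-coding genes between them in the annotation of Release 6, so the egg235 mutation and other differences of the chromosome that carries it, at bw included, cannot be told apart. The same holds for pr, Pu and cl, which share chromosome 2 with egg, and for se and ry, which share chromosome 3 with Su(var)3-9. Among the 20 measured genes nearest bw, 2 rose and 3 fell in egg mutants, with a median change of -0.02, where 32.0% of all probe sets rose and 18.9% fell (median 0.09).

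**Figure D2:**
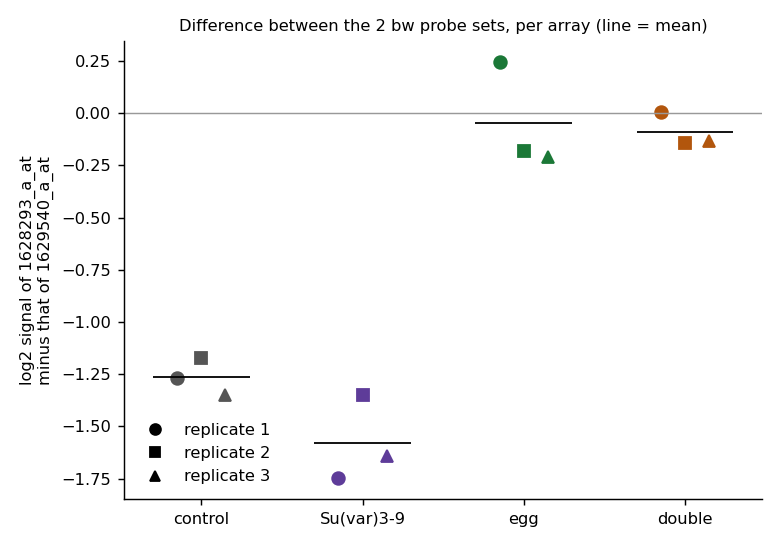
Log2 signal of bw probe set 1628293_a_at minus that of 1629540_a_at (vertical axis) on each array, by group, with the mean as a line and replicates as symbols. The 6 arrays without the egg mutation lie between -1.75 and -1.17, and the 6 arrays with it between -0.21 and 0.24.

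Counted by gene, with the brighter probe set for bw, most rises over the control were in the groups with the Su(var)3-9 mutation. All probe sets also rose more often in those groups (44.4% and 40.4%) than in egg mutants (32.0%). The count of rises in Su(var)3-9 mutants, 4 of 7, was near the share of all probe sets. In the Su(var)3-9 mutant 4 of 7 genes rose (se, bw, pr and Pu), 1 fell (cl) and 2 did not pass (ry and mal), where 44.4% of all probe sets rose and 17.3% fell. The median change of the 7 genes was 0.85, and that of all probe sets 0.21. In the double mutant 5 rose (se, Pu, pr, bw and ry) and none fell against the control, with 40.4% of probe sets higher and 17.3% lower; the medians were 0.47 for the genes and 0.18 for all probe sets. In egg mutants 1 rose (Pu) and none fell, which is below the 32.0% of probe sets that rose and the 18.9% that fell there, with medians of 0.08 and 0.09. With the 2 bw probe sets averaged, bw rose in egg mutants as well (0.66, adjusted p = 0.000207). These counts for the mutants share the control arrays.

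The 2 single mutants differed directly. In the egg mutant 5 of 7 genes were lower than in Su(var)3-9 mutants (se, pr, Pu, ry and, by its brighter probe set, bw) and none higher, with 13.9% of probe sets lower and 13.4% higher, and the median was -0.53 for the genes against -0.06 for all probe sets. The differences were -1.15 ± 0.10 for se (adjusted p = 4.2e-06), -1.02 ± 0.11 for the brighter bw probe set, -0.81 ± 0.09 for pr and -0.53 ± 0.09 for Pu. The other bw probe set was higher, by 0.51, and the mean of both, at -0.25, did not pass. With each array's averaged testis, gut and muscle level as a covariate, se, pr and bw remained lower in egg mutants (-1.0, -0.70 and -0.82, adjusted p = 0.00869, 0.0339 and 0.0376), with bw again by its brighter probe set. Pu and ry did not pass with it, at -0.56 ± 0.18 and -0.37 ± 0.20, where the standard errors without it were 0.09 and 0.10. Of the marker genes, 12 of 13 for photoreceptors, 8 of 17 for neurons, 14 of 20 for gut and 15 of 20 for testis were higher in egg than in Su(var)3-9 mutants and none lower. Fat body markers had 5 of 8 lower and muscle markers 6 of 13 lower, with none higher. The part of these tissues was not tested beyond the covariate. The same 5 genes were higher in the double than in egg mutants, with 7.91% of probe sets higher and 7.62% lower, by 0.42 for bw to 0.69 for se, and with a median of 0.48 against 0.03. With the covariate none of the 5 passed, at 0.56 for se (adjusted p = 0.139), 0.58 for ry (0.157), 0.50 for Pu (0.161), 0.42 for pr (0.221) and 0.24 for bw (0.627).

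The double mutant against the Su(var)3-9 mutant is the comparison in which the other-tissue levels of the groups overlapped, with their mean over testis, gut and muscle at 7.22 to 7.87 and 7.001 to 7.87. Here se and, by its brighter probe set, bw were lower and none of the 7 genes higher, with 2.63% of probe sets lower and 2.55% higher. With the other-tissue level as a covariate se was at -0.44 (adjusted p = 0.0216) and that bw probe set at -0.57 (adjusted p = 0.00708). The other bw probe set was higher, by 0.90 without and 0.93 with the covariate, and the mean of both changed by 0.15 (adjusted p = 0.525). The median change was -0.05 for the genes and -0.01 for all probe sets.

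In the contrasts with the control, the covariate left none of the 7 genes past the threshold. The control's other-tissue level, at 10.49 to 11.01, lay above that of every mutant array, at 7.001 to 8.69, so genotype and tissue content largely coincide there. With the covariate the change of se in Su(var)3-9 mutants was 0.96 ± 0.45 (adjusted p = 0.536), that of pr 0.68 ± 0.40 (adjusted p = 0.649) and that of Pu 0.93 ± 0.43 (adjusted p = 0.529). The part that tissue content has in the rises over the control was not tested further.

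**Figure D3:**
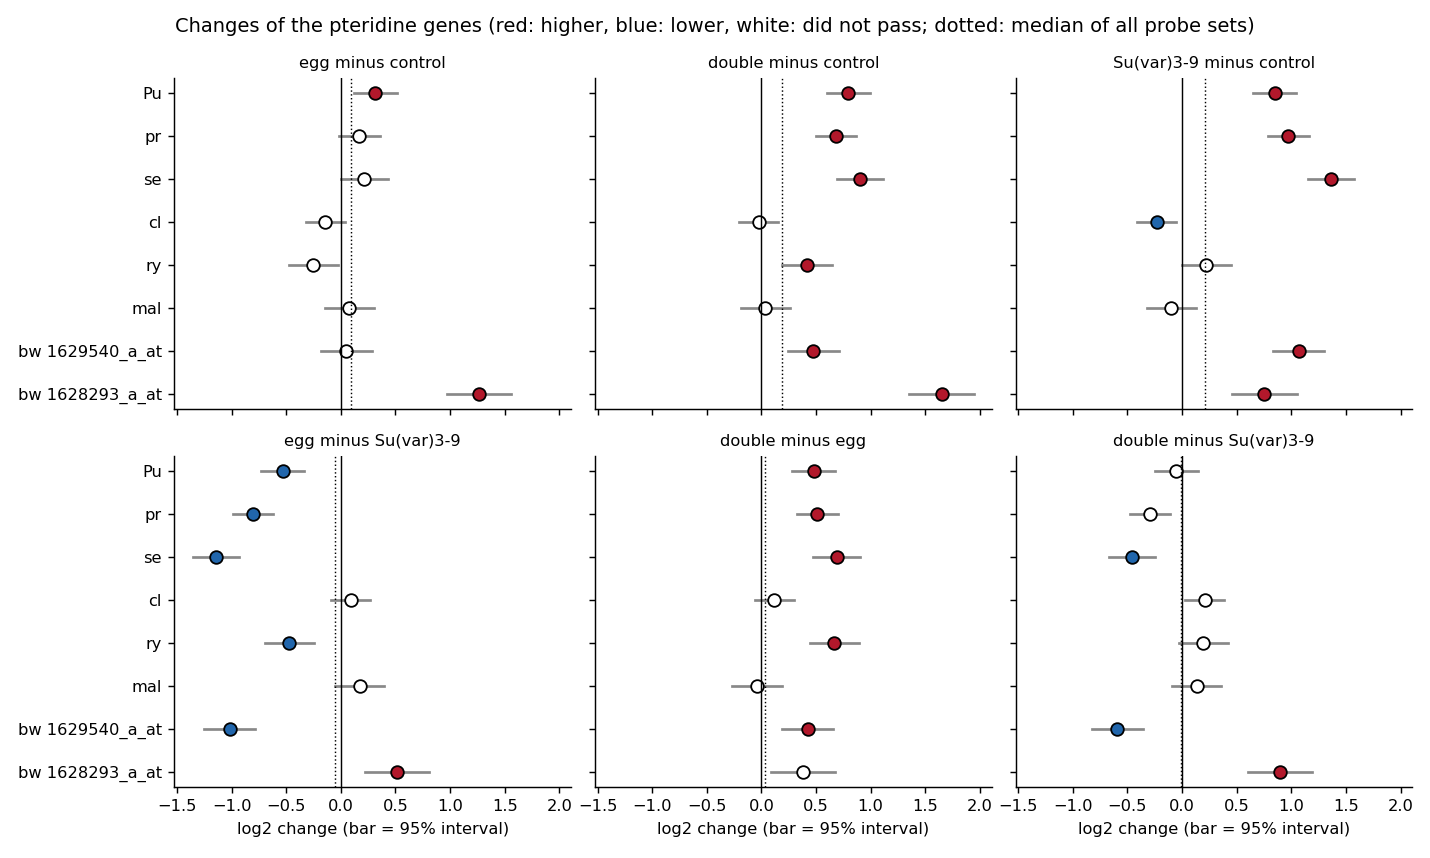
Log2 change of each probe set (horizontal axis, with its 95% interval as a bar) in 6 comparisons; red marks a rise past the threshold, blue a fall, white neither, and the dotted line the median of all probe sets. se, pr, Pu and bw 1629540_a_at are higher in Su(var)3-9 mutants than in controls and lower in egg mutants than in Su(var)3-9 mutants, while bw 1628293_a_at is higher in both comparisons.

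Whether the egg mutation acted differently with and without the Su(var)3-9 mutation was tested as an interaction. It passed for 6 of 7 genes, 4 below 0 and 2 above, where 24.9% of all probe sets passed below 0 and 15.8% above. se (-0.67 ± 0.14, adjusted p = 0.00187), bw (-0.65 ± 0.15), pr (-0.46 ± 0.12) and Pu (-0.37 ± 0.13) had a lower effect of the egg mutation with the Su(var)3-9 mutation than without it. ry (0.45 ± 0.15) and cl (0.35 ± 0.12) had the opposite sign. Only 3 genes, all below 0, passed without control replicate 1, Su(var)3-9 replicate 3, double replicate 2 or egg replicate 3. With the covariate none passed: Pu, ry and cl were at -0.42, 0.63 and 0.35, no smaller than without it, and se, bw and pr at -0.40, -0.27 and -0.26. The balance also turned with the scaling. Median centring left 4 below 0 and none above, brighter centring 2 and 2, and loess 1 below (se) and 3 above, mal among them at 0.36 (adjusted p = 0.0435). In the same test all 17 neuron markers, 10 of 13 photoreceptor markers and 6 of 10 granule genes passed below 0. The other photoreceptor and granule genes were also below 0 but did not pass, with highest values of -0.11 and -0.02. Above 0, 18 of 20 testis and 12 of 20 gut genes passed. The part of these tissues in the values was not tested.

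The size of every change depended on how arrays were put on a common scale. Centring each array on its median raised the median change of all probe sets in Su(var)3-9 mutants from 0.21 to 0.58, and cyclic loess brought it near 0. Measured from that median, se was at 1.15 as deposited and 1.22 after loess, pr at 0.76 and 0.79, and Pu at 0.63 and 0.74. Centring shifts all probe sets of an array alike, so these values are the same under it by construction. se, pr, Pu and both bw probe sets rose in Su(var)3-9 mutants under all 4 scalings. In double mutants the rises of ry and of the brighter bw probe set no longer passed after loess (0.09 and 0.14). cl and mal passed with opposite signs there, at 0.33 and 0.39 after median centring and at -0.28 and -0.30 after loess. In the egg mutant the calls were not stable: 5 genes rose after median centring, 2 fell when arrays were centred on their brighter probe sets and 3 fell after loess, where 1 rose as deposited. The share of calls that were rises went from 62.8% to 80.4%, 51.0% and 37.8% in egg mutants under median centring, brighter centring and loess. In the Su(var)3-9 mutant it went from 71.9% to 86.8%, 60.9% and 38.7%, and in double mutants from 70.1% to 86.6%, 58.0% and 37.3%. For the interaction the share above 0 went from 38.8% to 19.8%, 50.7% and 66.6%. Median centring also moved it from 49.1% to 19.2% for the egg against the Su(var)3-9 mutant and from 50.9% to 79.3% for the double against the egg mutant.

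**Figure D4:**
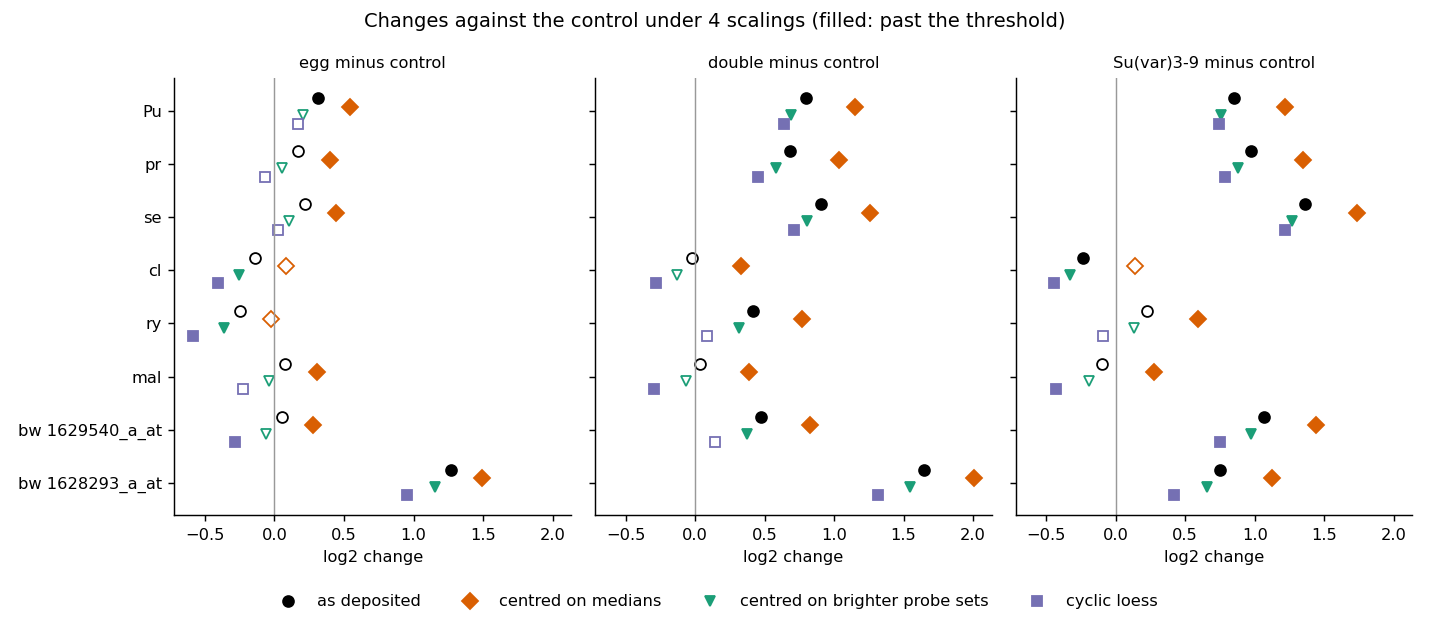
Log2 change from the control (horizontal axis) of each probe set under 4 scalings of the arrays, as deposited (black), centred on array medians (orange), centred on brighter probe sets (green) and cyclic loess (purple), filled where the change passed the threshold. se, pr and Pu stay to the right of 0 in the double and Su(var)3-9 mutants under each, and cl and mal lie on both sides.

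The purine pathway supplies GTP to Pu. Of its 9 measured genes 6 fell, 2 did not pass and 1 (ras) rose in egg mutants, where 18.9% of all probe sets fell and 32.0% rose, and the median was -0.53. Pfas, which makes the amidine intermediate of purine synthesis, had 9.47, 9.68 and 9.61 in controls and 8.24, 8.29 and 8.20 in egg mutants, a change of -1.34 ± 0.09 (adjusted p = 1.8e-07). No egg mutant array came near the control's. The changes of Gart, an enzyme of several steps of the route, and Paics were -1.27 ± 0.09 and -0.98 ± 0.09. In the Su(var)3-9 mutant 3 of the 9 rose and 2 fell (median 0.17), where 44.4% of all probe sets rose and 17.3% fell (median 0.21). In the egg mutant 6 of the 9 were lower than in Su(var)3-9 mutants (median -0.83), where 13.9% of all probe sets were lower. In the double mutant Gart read 10.10, 10.34 and 10.11, against 8.36, 8.53 and 8.45 in egg mutants, a difference of 1.74 ± 0.09 (adjusted p = 1.77e-07). Between these 2 groups 6 of the 9 were higher in the double mutant, where 7.91% of all probe sets were higher. ras, the IMP dehydrogenase gene on the way to GTP, rose in egg mutants (0.25).

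Other enzymes of pterin metabolism had smaller changes than se, pr and Pu in Su(var)3-9 and double mutants. Of Sptr, Pcd, Dhpr and DhpD, 2 rose and none fell in Su(var)3-9 mutants: Sptr, sepiapterin reductase of the tetrahydrobiopterin branch, by 0.50 ± 0.08 (adjusted p = 0.00022) and Pcd, which recycles the cofactor, by 0.36 ± 0.08 (adjusted p = 0.00133). All 4 rose in double mutants, by 0.25 to 0.51. In the egg mutant DhpD fell by 0.35 ± 0.08 (adjusted p = 0.00363) and the other 3 did not pass. Of all probe sets 32.0%, 44.4% and 40.4% rose in the egg, Su(var)3-9 and double mutants, and 18.9%, 17.3% and 17.3% fell. The count of rises in Su(var)3-9 mutants was near that share. Of 5 users of tetrahydrobiopterin 2 were measured, and both rose in every mutant: Nos, nitric oxide synthase, by 1.48, 1.25 and 1.29, and ple, tyrosine hydroxylase, by 0.91, 1.03 and 1.02 in the egg, Su(var)3-9 and double mutants. All 17 measured neuron markers were higher in each mutant too, and their part in this was not tested.

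The near relatives of se had their own values. GstO1, GstO2 and GstO3 are omega class glutathione transferases in the same cluster as se, with at most 1 protein-coding gene between. GstO1 fell by 1.41 ± 0.11 in egg mutants (adjusted p = 7.69e-07), by 0.49 ± 0.11 in Su(var)3-9 mutants (adjusted p = 0.00274) and by 1.02 ± 0.11 in double mutants (adjusted p = 9.29e-06), and GstO2 by 0.28, 0.32 and 0.33. GstO3 passed in none of these. Of the 20 measured genes nearest se, 13 rose and 2 fell in Su(var)3-9 mutants (median 0.35), and of the 20 nearest pr 4 rose and 7 fell there (median -0.05). Of all probe sets 44.4% rose and 17.3% fell, with a median of 0.21.

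Of the 5 measured genes for molybdenum enzymes and their cofactor, beside ry and mal, AOX1, an aldehyde oxidase, fell by 1.45 ± 0.09 in egg mutants, by 1.10 ± 0.09 in Su(var)3-9 mutants and by 0.91 ± 0.09 in double mutants. AOX3 rose by 0.54 ± 0.10 in Su(var)3-9 mutants (adjusted p = 0.000708). AOX2 and AOX4 read between 3.57 and 4.34 on all arrays, where array medians were 5.71 to 6.14, and were not shown to be above background, so no change is given for them. AOX1, AOX3 and the cofactor gene Mocs1 were lower in egg than in Su(var)3-9 mutants, with differences of -0.35, -0.42 and -0.44. Malpighian tubules are a tissue in which ry is known to act. The median of 6 measured tubule markers was 6.97 to 7.34 in controls, 6.58 to 6.69 in egg mutants and 6.17 to 6.44 in the others. That of 8 fat body markers was 9.78 to 10.20, 9.68 to 9.73 and 10.30 to 10.56. Single markers went both ways. Of the tubule markers 3 rose and 3 fell in egg mutants, 2 and 3 in Su(var)3-9 mutants and 2 and 4 in double mutants. For fat body the counts were 3 and 3, 4 and 2, and 5 and 1. Of all probe sets 32.0%, 44.4% and 40.4% rose and 18.9%, 17.3% and 17.3% fell.

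The products of granule trafficking genes build the compartments that hold eye pigment. Of 10 such genes 8 rose in egg mutants, 9 in Su(var)3-9 mutants and all in double mutants, and none fell, with medians of 0.45, 0.49 and 0.55. The shares of all probe sets that rose were 32.0%, 44.4% and 40.4%. g, an adaptor complex subunit, rose by 0.90, 0.92 and 0.81, car, a vesicle fusion protein, by 0.89, 0.81 and 0.81, and rb, another adaptor subunit, by 0.62, 0.53 and 0.58. Between the egg and Su(var)3-9 mutants 1 of the 10 was higher and 1 lower, where 13.4% of all probe sets were higher and 13.9% lower. Among 4 ommochrome genes cd rose by 0.60, 0.57 and 0.59 and kar by 0.31, 0.40 and 0.20. cn read between 3.50 and 3.79 on all arrays, where array medians were 5.71 to 6.14. It was not shown to be above background, so no change is given for it. st, the transporter subunit of the ommochrome route, fell by 0.43 ± 0.08 in egg mutants (adjusted p = 0.000676). Pdh of the pigment cells rose by 0.21, 0.31 and 0.44, and of the 13 photoreceptor genes 13, 7 and 11 rose, in the same order of mutants. The part that these cells have in the changes was not tested.

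**Figure D5:**
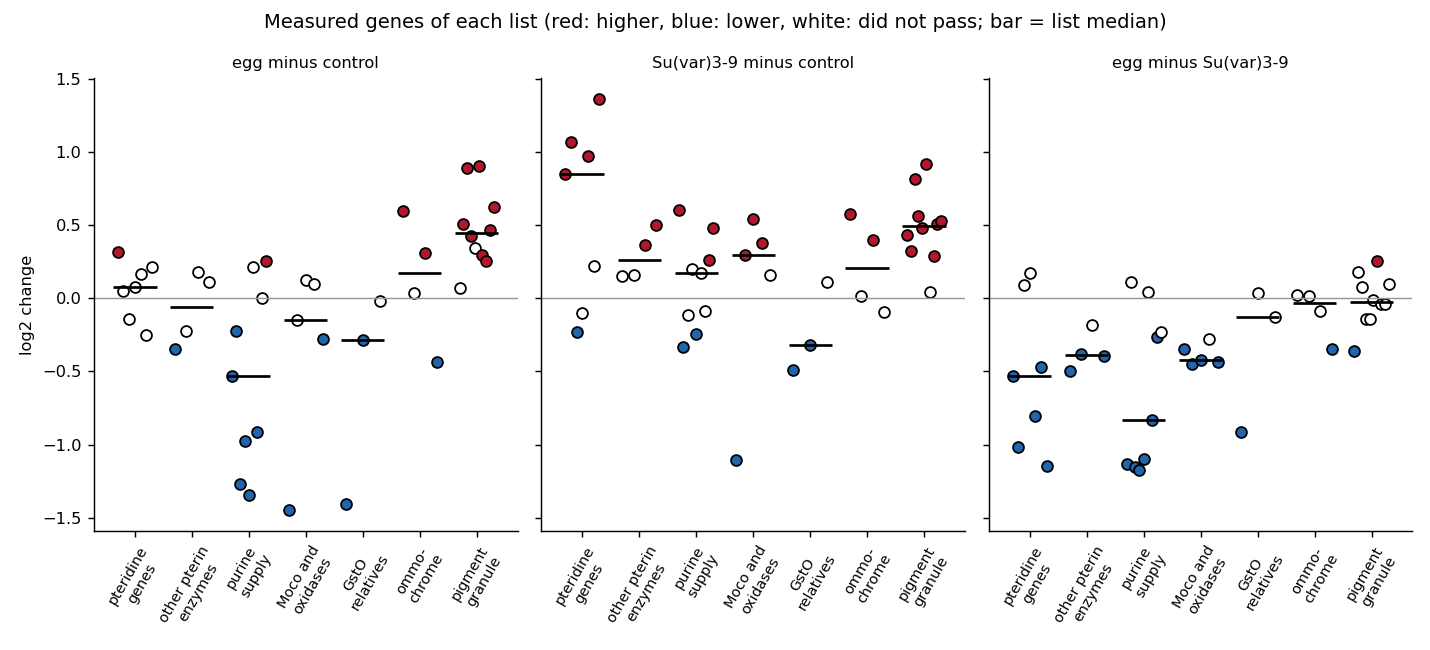
Log2 change (vertical axis) of each measured gene of 7 lists in egg mutants against the control, the Su(var)3-9 mutant against the control and the egg against the Su(var)3-9 mutant. Points are genes, bars list medians, red and blue calls. AOX2 and AOX4 of the Moco list and cn of the ommochrome list are drawn although not shown to be above background. The pteridine genes have a median of 0.08, 0.85 and -0.53 in these comparisons, and the granule genes 0.45, 0.49 and -0.03.

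The genes whose levels followed each member most closely over the 12 arrays, by Pearson correlation, are given as a description, since all points share the 4 groups and their tissue content. For se they were ldd (0.986), Glt (0.985) and CG15369 (0.984), and for pr CG8788 (0.988), sona (0.985) and l(3)mbn (0.984). For Pu they were Ptp10D (0.981), Cpr11B (0.972) and Pp1alpha-96A (0.970). The 2 bw probe sets shared none: CG13720 (0.985), CG1889 (0.981) and CG12811 (0.975) were nearest to 1629540_a_at, and Papss (0.987), Nep1 (0.982) and sfl (0.982) to 1628293_a_at. ry was nearest to CG2121 (0.960), CG11275 (0.955) and Ada (0.953). cl and mal had weaker likeness, with CG15674 (0.897) and kst (0.894) at the top.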

How the data were processed

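The authors deposited log2 expression values. RMA and limma are the tools in the submitters' processing notes, and their versions are not given in the sources used here. Because RMA normalises between arrays, a change in total RNA per head is not visible. Of 13 arrays 12 were used, because the column of the second technical array of control replicate 1 was empty; it was the 1 column of values not used. After 183 Affymetrix controls were left out, 18769 probe sets were tested, of which 13647 had 1 gene symbol, 402 several and 4720 none. Within-group array correlations were 0.992 to 0.998. Arrays have no read depth, so precision is set by how many there are.

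A model of 4 group means was fitted with limma 3.58.1 (lmFit, eBayes) in R 4.3.3, with 8 residual degrees of freedom. The script was tested on simulated data. Tables and figures used Python 3.11.15, pandas 2.3.3, numpy 2.4.6 and matplotlib 3.10.9. The members and lists were chosen with earlier results of these data known. All members are named by every probe set, up to 3 genes per pathway list by largest called change from the control (others named in a count were chosen after their values were seen), and the 3 genes most like each member. Alternatives were a replicate block, only the groups compared, trended robust eBayes, a filter at the 40th percentile, 3 scalings, an other-tissue covariate, averaging the probe sets of a gene and leaving out each array. Same-numbered arrays of different groups correlated in their deviations from group means at -0.36 to 0.10, with 1 of 18 pairs over 0.1, so the numbers were not taken to pair samples.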

Additional observations from a re-analysis of the deposited data

Results flagged for a closer look

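For 6 probe sets the effect of the egg mutation differed with and without the Su(var)3-9 mutation in the interaction test of limma. The difference, as the effect with minus the effect without, was -0.67 ± 0.14 for se (adjusted p = 0.00187), -0.65 ± 0.15 for bw 1629540_a_at (adjusted p = 0.00451), -0.46 ± 0.12 for pr (adjusted p = 0.0087) and -0.37 ± 0.13 for Pu (adjusted p = 0.0347). It was 0.45 ± 0.15 for ry (adjusted p = 0.0281) and 0.35 ± 0.12 for cl (adjusted p = 0.0294). In se the egg mutation went with 0.22 against the control and -0.46 against the Su(var)3-9 mutant, and in ry with -0.25 and 0.19. Pu, cl and ry each passed in 5 of 12 fits that left out 1 array.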

How the results depend on the processing

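Over all alternatives 1119 values of single members were recomputed, of which 1009 neither lost nor gained a call, 72 lost and 30 gained one and 8 reversed. Of the 1009, 24 changed sign without passing in either fit. se, pr, Pu and bw 1629540_a_at stayed past the threshold in the Su(var)3-9 mutant against the control in 12 of 12 fits that left out 1 array. The number of members called in the egg mutant against the control, 1 as reported, was 3 with the replicate block and with trended robust eBayes, 2 with the percentile filter, 5 with median centring, 2 with brighter centring, 3 with loess, 0 with the covariate and 2 with averaged probe sets, and ranged from 0 to 2 over fits that left out 1 array (0 without egg replicate 2, 2 without control replicate 2 or 3). With the other-tissue covariate the count was also 0 in both other contrasts with the control, for double against egg mutants and for the interaction, and 3 for egg against Su(var)3-9 mutants. For double against Su(var)3-9 mutants it was 1 with averaged probe sets and 1 to 2 leaving out 1 array (1 without Su(var)3-9 replicate 1 or 2 or double replicate 1 or 3), and for the interaction 3 to 6. The covariate raised the standard errors in the contrasts with the control, where it nearly coincides with mutant against control. Between mutants it raised that of Pu from 0.09 to 0.18 for egg against Su(var)3-9 mutants. For double against egg mutants that of Pu went from 0.09 to 0.17. Why calls were lost or gained was not tested for any setting. Against the control, reversals were cl under median centring at 0.14 in the Su(var)3-9 and 0.33 in the double mutant, mal under median centring at 0.27 in the Su(var)3-9 mutant and under loess at -0.30 in the double mutant, and bw 1629540_a_at under loess at -0.29 in the egg mutant. With the covariate bw 1629540_a_at was at -0.063 in the double and bw 1628293_a_at at -0.20 in the Su(var)3-9 mutant. The mean of the 2 bw probe sets was 0.15 for double against Su(var)3-9 mutants. The replicate block changed no other count of members beyond 1.5 times. Using the second technical array of control replicate 1 alone was not run, since its column was empty. All 8 member probe sets lay above the 40th percentile of signal.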
